A study of Homo sapiens with 6 samples.

Results

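BRACHYURY (BRA) binding was examined around 4 genes that encode GATA transcription factors, GATA2, GATA3, GATA4 and GATA6. Peaks were taken from all 4 deposited BRA ChIP-seq peak lists wherever the midpoint of the peak fell in a gene body or in the 50 kb on either side of it. In hg19 coordinates the windows were chr3:128148000-128262000 for GATA2, chr10:8047000-8167000 for GATA3, chr8:11512000-11667000 for GATA4 and chr18:19699000-19832000 for GATA6. These windows held 50 of the 54994 peaks. The cells were of H9, an established human embryonic stem cell line, cultured for 36 h with FGF2 at 20 ng/ml and the PI3K inhibitor LY294002 at 10 µM in every group. FLyA medium also held activin A at 100 ng/ml, and its cells are labelled as endoderm progenitors. FLyB medium held BMP4 at 10 ng/ml in place of activin A, and its cells are labelled as mesoderm progenitors. The peak lists hold no expression values, so the labels were not checked against marker genes here. BRA-bound chromatin was precipitated with an R&D Systems or a Santa Cruz antibody, which gave 1 library for each medium and antibody and no second library with the same antibody. The study treats the antibodies as its repeat of each medium. Lists of the same medium are therefore compared between antibodies, and lists of the same antibody between media, by position and without p-values. Each deposited peak was 400 bp wide and carried no height or score, so the reads behind a peak are unknown, and binding in fewer cells and weaker binding in all cells cannot be told apart.

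GATA factors are zinc-finger proteins that bind the sequence from which the family takes its name. GATA4 and GATA6 are known for their part in endoderm and in cardiac mesoderm, GATA2 for blood progenitors, and GATA3 for trophectoderm and T cells. BRA is the founding member of the T-box family, whose proteins bind sites built around the letters GGTGTGA, and it is expressed in the primitive streak, from which mesoderm and definitive endoderm arise. Activin A acts through SMAD2 and SMAD3, and BMP4 through other members of the SMAD family. GATA2, GATA3, GATA4 and GATA6 are therefore genes of interest for both media, which share FGF2 and LY294002 and differ in the added TGFβ-family ligand.

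The 250 bases in front of annotated start sites are shown for 3 of the genes, since several of the peaks described further on lay within a few kb of the start edge of the gene. The sequences are those of RefSeq on GRCh38.p14, a later build than that of the peak lists, and no position was carried from one build to the other. Of the 9 RefSeq promoters of GATA2, GATA3 and GATA6, the one of GATA6, both of GATA2 and the outermost of the 6 of GATA3 are printed 5′ to 3′ on the strand of the gene, which is minus for GATA2 and plus for GATA3 and GATA6. Which of the GATA3 starts lies nearest to the start edge of its window was not determined, and the printed one may lie some kb in front of it. Capitals mark every match on either strand to the T-box core GGTGTGA, the shorter core GTGTGA contained in it, a GATA site (AGATAA or TGATAA) or the SMAD box CAGAC.
GATA6, chr18:22169339-22169588: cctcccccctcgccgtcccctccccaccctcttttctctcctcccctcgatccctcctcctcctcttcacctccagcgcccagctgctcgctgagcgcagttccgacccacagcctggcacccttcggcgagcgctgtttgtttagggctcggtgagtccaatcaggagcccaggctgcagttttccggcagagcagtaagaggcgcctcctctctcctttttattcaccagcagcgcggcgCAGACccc
GATA2 outer start, chr3:128493202-128493451: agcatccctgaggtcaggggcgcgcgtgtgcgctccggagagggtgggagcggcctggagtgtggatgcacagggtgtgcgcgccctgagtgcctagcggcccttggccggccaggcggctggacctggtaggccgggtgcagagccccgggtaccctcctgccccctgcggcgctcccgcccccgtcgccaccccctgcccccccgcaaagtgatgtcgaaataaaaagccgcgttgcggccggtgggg
GATA2 inner start, chr3:128488531-128488780: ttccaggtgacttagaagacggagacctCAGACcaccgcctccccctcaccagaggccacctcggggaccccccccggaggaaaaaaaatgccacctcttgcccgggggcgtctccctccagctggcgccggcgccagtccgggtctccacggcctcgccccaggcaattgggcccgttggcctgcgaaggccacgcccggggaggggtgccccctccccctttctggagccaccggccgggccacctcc
GATA3 outer start, chr10:8045083-8045332: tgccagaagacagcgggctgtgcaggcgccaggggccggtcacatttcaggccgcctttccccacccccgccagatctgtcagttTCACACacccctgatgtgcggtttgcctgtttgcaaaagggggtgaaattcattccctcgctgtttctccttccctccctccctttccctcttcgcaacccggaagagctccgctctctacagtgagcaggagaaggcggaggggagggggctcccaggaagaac
The GATA6 promoter held a SMAD box at -8 from the start, the inner GATA2 promoter one at -222, and the outer GATA3 promoter the short T-box core at -165. The GATA3 promoters not printed held neither T-box core, and some held a SMAD box, at -206, -6 and -182. The T-box core was in 0 of the 9 GATA promoters and in 2.76% of the 35116 RefSeq promoters of this length. The short core was in 1 of 9 against 9.90% of all, the GATA site in 0 of 9 against 14.6%, and the SMAD box in 5 of 9 against 38.0%. A match is given as letters only, and the absence of a match speaks only of these letters in these 250 bases.

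The 4 windows were dense in BRA peaks in both media. With the R&D Systems antibody they held 18 peaks in FLyA and 26 in FLyB, of 25864 and 23687 in the whole lists. The density was 34.5 peaks per Mb in FLyA, 3.92 times the mean of its list, and 49.8 per Mb in FLyB, 6.19 times the mean. With the Santa Cruz antibody, whose lists are shorter (2436 and 3007 peaks), 1 peak lay in the windows in FLyA and 5 in FLyB. Those 5 amount to 9.58 peaks per Mb, 9.37 times the mean density of the list, and the single FLyA peak to 2.31 times. Each mean was taken over the 2942 Mb that the peaks span, with or without genes, and windows around other genes were not compared. The ranks given further on use stretches laid along the same length, so the same limit applies to them. Whether genes in general show such densities was not tested. FLyB peaks made up 59.1% of the 44 R&D Systems peaks (95% exact binomial interval 43.2 to 73.7%), against 47.8% of all R&D Systems peaks, which lies inside the interval. Intervals here and in what follows are Clopper-Pearson intervals, which cover counting error only and treat neighbouring peaks as independent, which they are not.

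**Figure D1:**
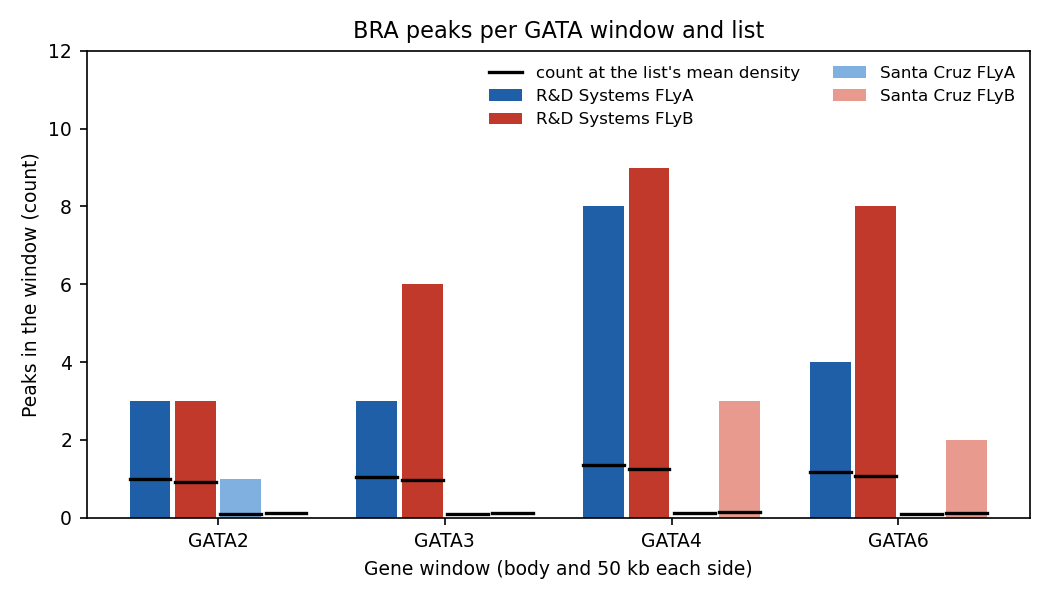
Number of BRA peaks (vertical axis) in the window of each GATA gene (horizontal axis), with 1 bar per peak list and a black line at the count that the mean density of the list would give. With R&D Systems, GATA4 held 8 peaks in FLyA and 9 in FLyB and GATA6 4 and 8, while GATA2 held 3 in each medium, and Santa Cruz FLyB peaks lay at GATA4 and GATA6 only.

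The genes differed in how many peaks surrounded them. With the flank of 50 kb GATA4 had the most, with 8 R&D Systems peaks in FLyA, 9 in FLyB and 3 Santa Cruz peaks in FLyB. At the mean density of the lists its 155 kb would hold 1.36, 1.25 and 0.158 peaks. Among 18971 stretches of 155 kb laid end to end along the chromosomes, 0.764%, 0.838% and 0.464% held at least as many peaks of the respective list. GATA6 came next, with 4 R&D Systems peaks in FLyA, 8 in FLyB and 2 Santa Cruz peaks in FLyB. The FLyB counts of GATA6 were matched by 0.954% of stretches of its length for R&D Systems and by 1.75% for Santa Cruz, and its FLyA count by 7.17%. With R&D Systems, GATA6 thus ranked close to GATA4 in FLyB and lower than GATA4 in FLyA at this flank. Per Mb the R&D Systems FLyB densities were 60.2 peaks at GATA6 and 58.1 at GATA4. The order turned with the flank. At 100 kb on each side the R&D Systems counts at GATA6 were 11 for FLyA and 14 for FLyB, against 8 and 10 at GATA4, and at 10 kb it had 3 and 8, against 5 and 6.

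With R&D Systems, GATA3 had 3 peaks in FLyA and 6 in FLyB, and it had no Santa Cruz peak. Its FLyA count was matched by 12.7% of stretches of 120 kb and its FLyB count by 2.10%. GATA2 had 3 peaks in each medium with R&D Systems, matched by 11.8% and 11.0% of stretches of 114 kb, and 1 Santa Cruz peak in FLyA, matched by 8.52%. The ranks of GATA2 were therefore the lowest in FLyB and close to those of GATA3 in FLyA. Counts of this size carry wide counting error, and differences between the genes or between the media were not tested. The nearest R&D Systems peaks beyond the lower edge of the GATA6 window lay 8.24 kb outside in FLyA and 8.20 kb in FLyB.

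**Figure D2:**
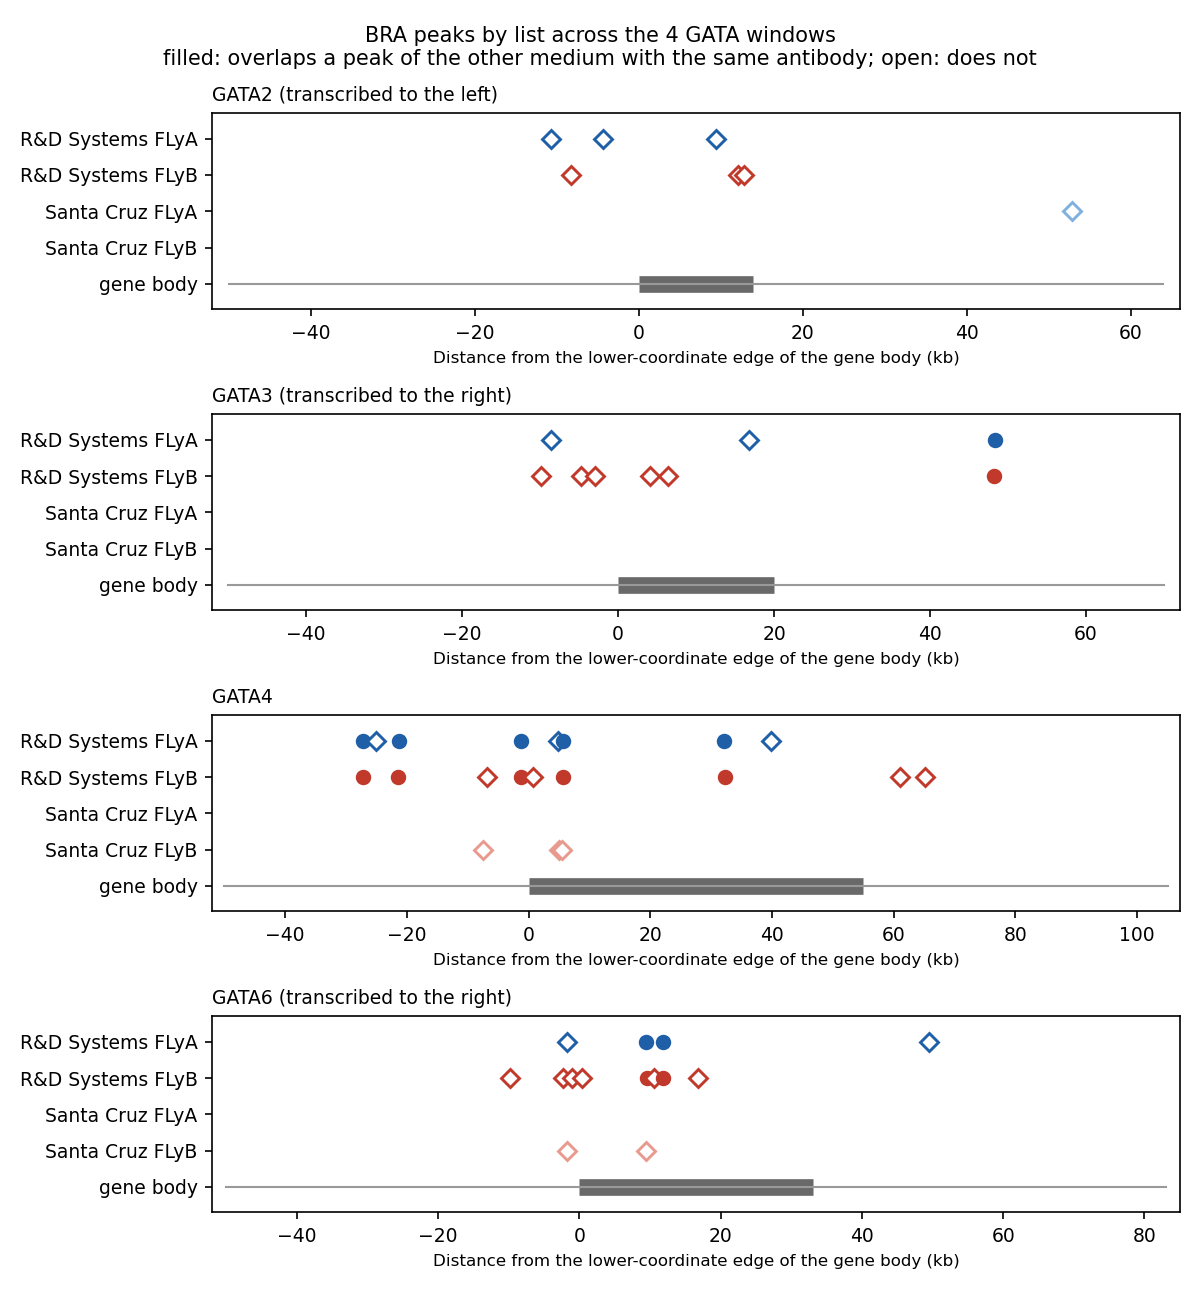
Position of each BRA peak in the 4 GATA windows, as the distance in kb of its midpoint from the lower-coordinate edge of the gene body (horizontal axis), with 1 row per peak list. Filled circles overlap a peak of the other medium with the same antibody and open diamonds do not, and the grey bar is the gene body; filled symbols stand in 5 FLyA and FLyB pairs at GATA4, 2 at GATA6, 1 at GATA3 and none at GATA2.

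The first question was whether BRA occupied the same positions around the GATA genes in both media. With the R&D Systems antibody, 8 of the 18 FLyA peaks overlapped a FLyB peak by at least 1 bp (44.4%, interval 21.5 to 69.2%), and 33.0% of all FLyA peaks did so. Seen from the other list, 8 of the 26 FLyB peaks overlapped a FLyA peak (30.8%, 14.3 to 51.8%), and 36.1% of all FLyB peaks did so. Both background shares lie within the intervals, so the GATA windows as a whole did not stand apart from the lists in this respect at these counts. The 4 genes differed among themselves in the number of such pairs. GATA4 contributed 5 of the 8 pairs, GATA6 2, GATA3 1 and GATA2 0.

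**Figure D3:**
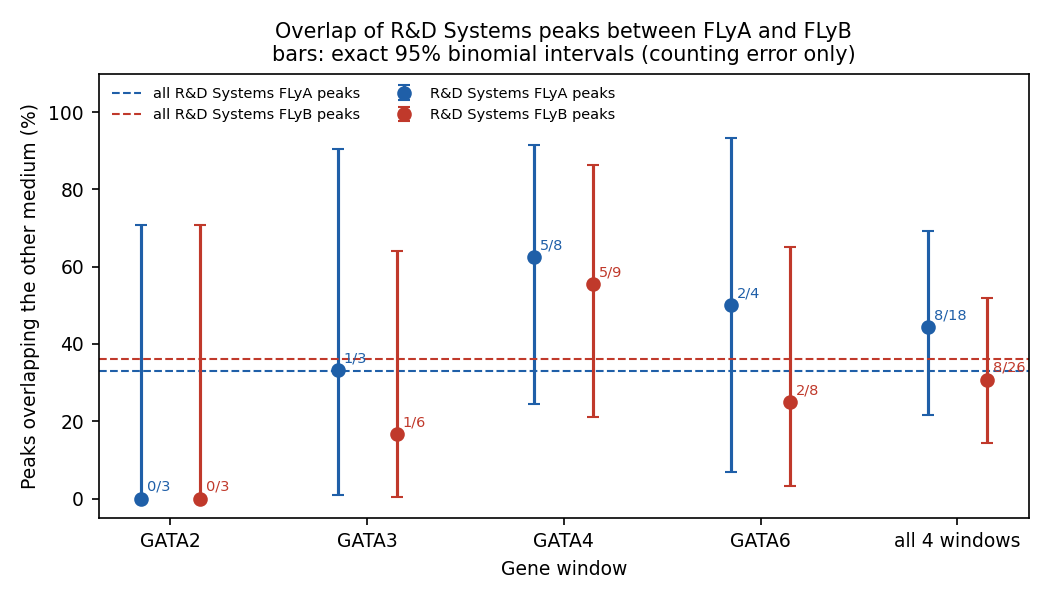
Share of R&D Systems peaks that overlap a peak of the other medium (vertical axis, %) for each GATA window and all 4 together (horizontal axis), with exact 95% intervals as error bars, the counts beside the points and dashed lines at the shares over the whole lists. The points run from 0/3 at GATA2 to 5/8 and 5/9 at GATA4, and every interval includes the share of its own list.

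At GATA4, a zinc-finger factor of endoderm and heart, more FLyA and FLyB peaks overlapped than at the other 3 genes. Of the 8 FLyA peaks, 5 overlapped a FLyB peak (62.5%, 24.5 to 91.5%), and of the 9 FLyB peaks, 5 overlapped a FLyA peak (55.6%, 21.2 to 86.3%). Both intervals include the shares over the whole lists, 33.0% and 36.1%, and 3 FLyA and 4 FLyB peaks had no partner. The midpoints of the 5 pairs lay 35, 184, 45, 43 and 204 bp apart, in order of coordinate. Of these sites, those at chr8:11534504-11534938, chr8:11540314-11540897 and chr8:11560552-11560996 lay on the lower side of the body, at -27.3, -21.4 and -1.23 kb from its edge at 11562000. The sites at chr8:11567300-11567814 and chr8:11593880-11594483 lay inside the body, at 5.56 and 32.2 kb from that edge. The RefSeq gene model of GATA4 on GRCh38.p14 is 83.1 kb long, against the 55 kb taken here as the body, so that some of the flanking peaks may lie within longer transcripts.

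The remaining GATA4 peaks of R&D Systems had no partner in the other medium. In FLyA they were at -25.1, 4.90 and 39.8 kb from the lower edge of the body. In FLyB they were at -6.77 and 0.790 kb and, past the higher edge of the body, at 61.0 and 65.1 kb. The region beyond the higher edge thus held FLyB peaks and no FLyA peak, while the stretch around the lower edge, from -27.3 to 5.61 kb, held peaks of both media. In this window 3 of the 8 FLyA peaks lay further than 10 kb from the body, so that a flank of 10 kb lowered the FLyA count to 5.

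At GATA6, the close relative of GATA4 with a known part in endoderm and cardiac mesoderm, FLyB peaks lined the start of the gene. The 8 FLyB peaks of R&D Systems had midpoints at -9.85, -2.40, -1.01, 0.409, 9.53, 10.5, 11.8 and 16.8 kb from the start edge of the body. The 4 FLyA peaks were at -1.80, 9.46, 11.8 and 49.5 kb. Between -2.40 and 0.409 kb there were 3 FLyB peaks, on both sides of the start edge, and 1 FLyA peak, and the FLyA peak furthest along lay beyond the end of the gene body. The FLyB peak nearest to the start edge, chr18:19749210-19749609, begins just beyond that edge, which the window gives to the nearest kb.

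Inside the GATA6 body the media met at a pair of sites. The site at chr18:19758249-19758732 held an R&D Systems peak of each medium with midpoints 75 bp apart, and the site at chr18:19760578-19761018 held a pair 41 bp apart. These were 2 of 4 FLyA peaks (50%, 6.76 to 93.2%) and 2 of 8 FLyB peaks (25%, 3.19 to 65.1%). The shares over the whole lists, 33.0% and 36.1%, lie inside these intervals. The 6 FLyB peaks without a FLyA partner at GATA6 lay between 601 and 8054 bp from the nearest FLyA peak, midpoint to midpoint.

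At GATA3, best known from trophectoderm and T cells, FLyB peaks lay on both sides of the start edge. The 6 FLyB peaks were at -9.82, -4.68, -2.90, 4.16, 6.44 and 48.3 kb. The 3 FLyA peaks were at -8.63, 16.8 and 48.3 kb. The sole pair, at chr10:8145053-8145543, lay past the end of the gene with midpoints 91 bp apart. It made up 1 of 3 FLyA peaks (33.3%, 0.840 to 90.6%) and 1 of 6 FLyB peaks (16.7%, 0.421 to 64.1%). The shares over the whole lists were 33.0% and 36.1%, inside these intervals. No FLyA peak fell between -8.63 and 16.8 kb, a stretch that held 4 of the 6 FLyB peaks. The FLyA peak at chr10:8088170-8088569 was separated from the FLyB peak at chr10:8086982-8087381 by 788 bp and was not counted as shared. RefSeq gives GATA3 a model of 29.9 kb with 6 start sites spread over 15.1 kb, against the 20 kb body of the window, so peaks placed in front of the edge may lie within a longer transcript.

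At GATA2, a factor of blood progenitors, no FLyA peak met a FLyB peak. The 3 FLyA peaks of R&D Systems lay 24.7, 18.4 and 4.50 kb downstream of the outer start edge, counted along the gene. The 3 FLyB peaks lay 22.3, 1.83 and 1.20 kb downstream of it. Each medium thus had peaks both past the end of the gene and within it, at different positions. With 0 of 3 peaks shared in either direction, the interval reaches 70.8%, so shares like those at the other genes could not be told from it. It also includes the shares over the whole lists, 33.0% for FLyA and 36.1% for FLyB. The nearest peak of the other medium lay 2388 to 3873 bp away from the FLyA peaks and 2388 to 3299 bp from the FLyB peaks. The closest FLyB pair, chr3:128209970-128210369 and chr3:128210599-128210998, left 229 bp between its peaks. RefSeq lists 2 GATA2 start sites 4.67 kb apart, and whether the FLyA peak at 4.50 kb covers the inner one was not tested, since the builds differ.

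**Figure D4:**
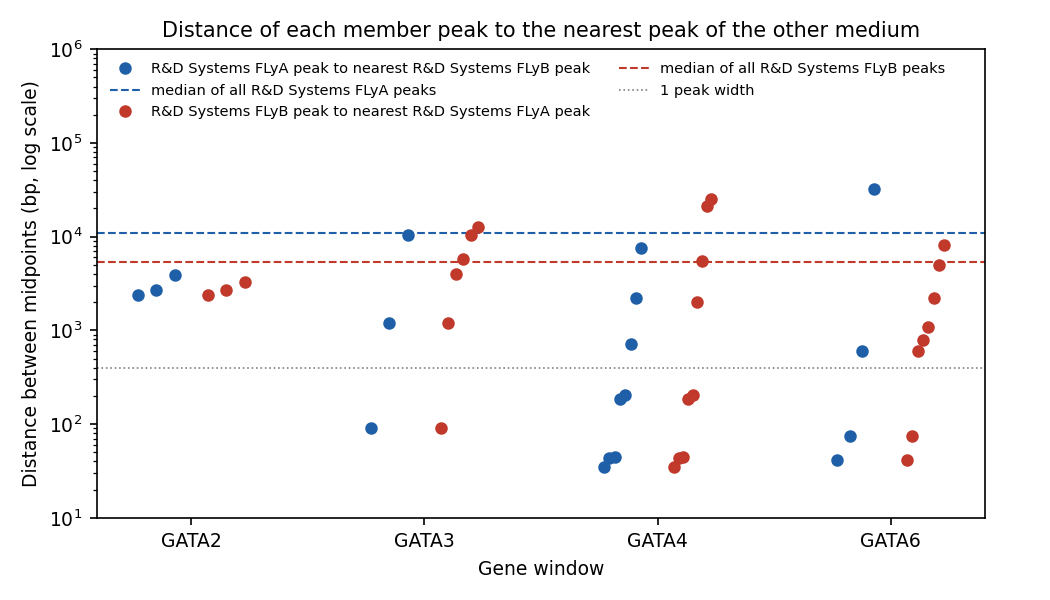
Distance in bp on a log scale (vertical axis) from each R&D Systems peak in the GATA windows to the nearest R&D Systems peak of the other medium, by gene (horizontal axis), with dashed lines at the medians of the whole lists and a dotted line at the 400 bp width of a peak. Points under the dotted line are overlapping pairs, and the GATA2 points sit together between 2388 and 3873 bp.

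The peaks without a partner were also measured to the nearest R&D Systems peak of the other medium. For the 10 such FLyA peaks the median distance between midpoints was 2.53 kb, and 3 of them lay within 2 kb (30%, 6.67 to 65.2%). For the 18 such FLyB peaks the median was 3.63 kb, and 5 lay within 2 kb (27.8%, 9.69 to 53.5%). Over the whole lists the peaks without a partner had medians of 36.6 kb in FLyA and 23.6 kb in FLyB, with 8.23% and 11.1% within 2 kb. Both of these shares lie inside the intervals of the windows. With the overlapping peaks included, the median distance from a FLyA peak of the GATA windows to the nearest FLyB peak was 0.658 kb, against 11.1 kb over the whole FLyA list. From FLyB peaks to the nearest FLyA peak the median was 2.10 kb, against 5.37 kb over the whole list. Peaks of one list also lay close to each other. The median distance to the nearest peak of the same list was 6.26 kb for FLyA and 2.28 kb for FLyB, against 22.7 and 17.0 kb over the whole lists. Another FLyB peak lay within 2 kb of 10 of the 26 FLyB peaks (38.5%) and of 17.9% of all FLyB peaks. At GATA6 this was so for 6 of 8 FLyB peaks and at GATA2 for 2 of 3. At GATA3 it was so for 2 of 6 and at GATA4 for 0 of 9. Both peaks of a close pair count in these numbers. The 0 depends on the limit, since the smallest FLyB distance at GATA4 was 2039 bp. For FLyA, 2 of 18 peaks had such a neighbour, both at GATA4, against 12.8% of all FLyA peaks. Distances are shorter wherever peaks are dense, so these medians are not independent of the counts.

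The second question was whether the Santa Cruz antibody found the same positions as the R&D Systems antibody. The study describes a weaker signal over noise and fewer unique reads for the Santa Cruz libraries, and its part in the low Santa Cruz counts was not tested. It also reports a high correlation of BRA binding between the antibodies in both media, and used the R&D Systems data for its later analyses. That correlation is a different measure from the overlap of listed peaks counted here. In FLyB, 2 of the 5 Santa Cruz peaks overlapped an R&D Systems FLyB peak (40%, 5.27 to 85.3%), against 79.0% of all Santa Cruz FLyB peaks. Counted from R&D Systems, 2 of the 26 FLyB peaks overlapped a Santa Cruz FLyB peak (7.69%, 0.946 to 25.1%), against 10.0% of the list. The 2 sites found by both antibodies in FLyB were chr8:11567300-11567814 in GATA4 and chr18:19758249-19758732 in GATA6, and both also held an R&D Systems FLyA peak. They were the only sites in the windows with peaks in 3 of the lists. The other Santa Cruz FLyB peaks lay just beside R&D Systems FLyB peaks, with gaps of 293 and 243 bp at GATA4 and 170 bp at GATA6.

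Of the same 5 Santa Cruz FLyB peaks, 4 overlapped an R&D Systems FLyA peak (80%, 28.4 to 99.5%), against 43.1% of all Santa Cruz FLyB peaks. The shares over the whole list lie inside the intervals for both media, and with peaks up to 500 bp apart counted as shared, 100% of the 5 (47.8 to 100%) and 81.1% of the whole list met an R&D Systems FLyB peak. At a pair of sites a Santa Cruz FLyB peak overlapped R&D Systems in FLyA and not in FLyB. At GATA4 the R&D Systems FLyA peak chr8:11566701-11567100 had no R&D Systems FLyB peak over it, but shared 329 bp with the Santa Cruz FLyB peak chr8:11566772-11567171. At GATA6 the FLyA peak chr18:19747003-19747402, in front of the start, shared 369 bp with the Santa Cruz FLyB peak chr18:19746972-19747371. Among R&D Systems FLyA peaks without an R&D Systems FLyB partner, 2 of 10 in the windows (20%, 2.52 to 55.6%) thus overlapped a Santa Cruz FLyB peak, and 0.300% of the 17320 such peaks in the whole list did so. These 2 sites were listed in FLyA alone with the R&D Systems antibody and in FLyB with the other, and they were singled out after their values were seen. Of the same 10 peaks, 0 overlapped a Santa Cruz FLyA peak (upper limit 30.8%), against 1.41% of the 17320. Among R&D Systems FLyB peaks without an R&D Systems FLyA partner, 0 of 18 overlapped a Santa Cruz FLyB peak (upper limit 18.5%), against 7.47% over the list. For Santa Cruz FLyA peaks it was also 0 of 18, against 0.522%.

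In FLyA the antibodies shared no position in the windows. The Santa Cruz FLyA list had 1 peak there, chr3:128250650-128251049, which lay 38.8 kb past the outer start edge of GATA2 on its higher-coordinate side and overlapped no other peak. Over the whole list 31.9% of Santa Cruz FLyA peaks overlapped an R&D Systems FLyA peak. None of the 18 R&D Systems FLyA peaks overlapped a Santa Cruz FLyA peak (0%, upper limit 18.5%), against 3.02% of the list, so no difference from the list was detectable. No Santa Cruz peak of either medium lay in the GATA3 window, and GATA2 had none in FLyB. Between media, 0 of 1 Santa Cruz FLyA peaks and 0 of 5 Santa Cruz FLyB peaks (upper limit 52.2%) overlapped, against 10.1% and 8.28% of the lists, so no difference from the lists was detectable.

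Joining overlapping peaks of all lists, whose calling thresholds are not known to match, gave 38 sites in the windows and 43081 in all. Peaks of FLyA only were at 9 of the 38 (23.7%, 11.4 to 40.2%), against 43.7% of all sites, which lies above the interval. Peaks of FLyB only were at 19 (50%, 33.4 to 66.6%), against 36.2%, and peaks of both media at 10 (26.3%, 13.4 to 43.1%), against 20.1%. From the R&D Systems lists alone, FLyA only held 10 of 36 sites (27.8%, 14.2 to 45.2%), against 42.3% of all, which lies inside the interval. FLyB only held 18 of 36 (50%, 32.9 to 67.1%), against 36.9%, and both media 8 of 36 (22.2%, 10.1 to 39.2%), against 20.8%. The lower FLyA-only share thus passed its interval with all lists joined, and did not with the R&D Systems lists alone. Joining all lists moved the 2 sites singled out above from FLyA only to both media, because a Santa Cruz FLyB peak overlaps each. The crossing therefore rests on sites chosen after their values were seen. It is also 1 of several such comparisons, and no difference is read from it. GATA4 had 13 sites, 6 of them with both media, 5 with FLyB only and 2 with FLyA only. GATA6 had 10 sites, 3 with both media, 6 with FLyB only and 1 with FLyA only. GATA3 had 8 sites, 1 with both media, 5 with FLyB only and 2 with FLyA only. GATA2 had 7 sites, 3 with FLyB only and 4 with FLyA only. Both antibodies had a peak at 4 sites, 2 at GATA4 and 2 at GATA6. At 2 of these the antibodies met within FLyB, and at the other 2 an R&D Systems FLyA peak met a Santa Cruz FLyB peak only.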

How the data were processed

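The authors sequenced the libraries on a Genome Analyzer II and called peaks with MACS. The submitters' processing notes name Bowtie 0.12.7 and hg19. The deposited lists give a chromosome, start and end per peak, with no count, score or signal. A MACS threshold of 1e-12 stands in the header of each Santa Cruz list and no header in those of R&D Systems, so list lengths are not comparable between antibodies. The 2 input libraries were not analysed here. Nothing in the labels says that the libraries came from separate cultures.

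Peaks were assigned to windows by midpoint and called shared at an overlap of at least 1 bp, with Python 3.11.15, NumPy 2.4.6, SciPy 1.17.1 and bedtools 2.31.1. The overlap function was tested on simulated data with planted partners and checked against bedtools; no chance overlap was simulated. The text names the 4 GATA genes only. The GATA genes and motifs were chosen with earlier results of these data known, and the short T-box core and SMAD box were added after the files were read. Motifs within peaks, other GATA genes and cofactors, and other genes in the windows needed an hg19 genome or annotation and were not analysed here. Alternatives covered the flank, the overlap rule, the antibody and the tiling.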

Additional observations from a re-analysis of the deposited data

How the results depend on the processing

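Of 109 alternative values for 34 results, 96 stayed within the limits set for them and 13 moved. These limits were wide, since a share passed anywhere inside the exact interval of its main value. Taking peaks by any overlap with the window, or merging overlapping peaks, left every count unchanged. The tally is therefore no measure of robustness. With flanks of 10 and 100 kb the R&D Systems FLyA count of 18 became 12 and 27, and the FLyB count of 26 became 22 and 36. All of these were tallied as unmoved. The Santa Cruz FLyA count over the windows was 0 with a flank of 10 kb and 2 with 100 kb. With the Santa Cruz antibody in place of R&D Systems, 0% of FLyA and 0% of FLyB peaks overlapped the other medium, from 1 and 5 peaks, against 10.1% and 8.28% of the whole lists. Among R&D Systems FLyB peaks found with both antibodies the share was 100%, from 2 peaks, and FLyA had no such peak to give a value. With peaks at most 500 bp apart counted as shared, 100% of the 5 Santa Cruz FLyB peaks and 81.1% of their list met an R&D Systems FLyB peak. In single windows, a flank of 100 kb gave 5 peaks in each medium at GATA2 with R&D Systems and 2 Santa Cruz FLyA peaks there, against 0 with 10 kb. The shared fraction otherwise ran from 38.9 to 55.6% in FLyA and from 22.7 to 38.5% in FLyB; over the whole lists the overlap rules of 200 and 500 bp gave 30.7 and 35.5% in FLyA and 33.6 and 39.4% in FLyB. Read depth per library is not in the lists, and with 1 library per medium and antibody the spread between libraries of the same antibody is not known.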
